A study of Mus musculus with 10 samples.

Results

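The 43 genes described here encode the autophagy machinery, the degradative contents and membrane of the lysosome, and the TFEB family of transcription factors that act on both. They were listed by name, with no measured value in the rule, but the list was chosen with earlier results of these data known. All 43 were found among the 53465 genes of the count files. By role they comprise 17 genes of the autophagy machinery, 16 of lysosomal hydrolysis and lipid handling, 7 of the lysosomal membrane and its proton pump, and 3 TFEB-family factors. A filter on low counts kept 42 of them for testing, and Mitf was the one that did not pass.

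The cells were CD8 T cells of C57BL/6 OT-I mice, whose transgenic T cell receptor recognises an ovalbumin peptide, taken from spleen and peripheral lymph nodes. All were activated for 3 days with that peptide and recombinant human IL-2 in 25 mM glucose, then moved to 1 mM glucose. All were stimulated again for 4 h with PMA and ionomycin before RNA was taken. The 4 groups were d9 with acetate (3 libraries), d9 without acetate (3), d5 with acetate (2) and d5 without acetate (2). Here d9 and d5 are the labels of cells kept 5 days (120 h) and 1 day (24 h) in 1 mM glucose, and acetate means 5 mM sodium acetate during the last day. The days of activation and restriction do not add up to these labels, which are used as given. No library from cells kept in 25 mM glucose was analysed here, so each comparison lies within glucose restriction, and time in low glucose and time since activation cannot be told apart. No label says that replicates came from separate animals or cultures, so the p-values measure the spread between these libraries, which may be technical.

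Autophagy encloses cytoplasm in a double membrane and delivers it to the lysosome, where acid hydrolases break it down and return amino acids, lipids and sugars to the cell. When nutrients are sufficient, the kinase complex mTORC1 holds TFEB and TFE3 in the cytoplasm and inhibits the ULK1 complex that starts autophagy. TFEB-family factors released from this hold enter the nucleus and bind the sequence CACGTG and its extended forms near the start sites of lysosomal and autophagy genes. In CD8 T cells autophagy is known for its part in survival after the effector phase and in memory formation. RNA levels measure neither the flux of autophagy nor the acidity of lysosomes.

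Total counts were 22966098 to 24659226 per d9 library and 16588023 to 17971480 per d5 library. The 8 T cell identity genes summed to 2901 to 3542 CPM (counts scaled to a common library total) in d9 libraries with acetate, 3130 to 3248 in d9 without, 2716 to 2812 in d5 with and 2319 to 2557 in d5 without. Of markers of other cells, the 8 dendritic cell genes summed to at most 64.2 CPM in any library, most of it Cd74 and H2-Ab1. The 10 monocyte and macrophage genes summed to at most 13.0 CPM in any library, most of it Cd68, with C1qa at 0 in all 10 libraries, and the 6 B cell genes to at most 5.15 CPM. In d9 without acetate replicate 1 and d9 with acetate replicate 2, ribosomal protein genes held 15.6% and 15.3% of counts, against 11.31% to 12.85% in the other 4 d9 libraries. At d5 the share was 12.11% and 10.9% without acetate and 11.98% and 14.18% with acetate, highest in d5 with acetate replicate 2. The 2 d9 libraries with the high share stand apart also in the genes described here, and each member whose call changes without both of them is named. In bulk RNA, fewer cells of a type and less RNA per cell cannot be told apart.

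Per kilobase of exon, the cargo receptor gene Sqstm1 stood highest of the 43, with a mean level over all 10 libraries of 738 CPM per kb. Ctsd followed at 230.4 and Gabarap at 112 CPM per kb. Psap (73.9), Gabarapl1 (69.1), Npc2 (58.8) and Ctsz (55.2 CPM per kb) came next. At the low end stood Cd63 at 2.64, Ctsl at 0.957, Wipi1 at 0.518 and Mitf at 0.0304 CPM per kb. All values below are CPM scaled by TMM, which compare one gene between libraries and not one gene with another.

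Longer glucose restriction was accompanied by higher RNA of a set of lysosomal and autophagy components and lower RNA of several cathepsins and membrane proteins. Without acetate, Ctsd RNA was 3.27-fold and Sqstm1 RNA 2.67-fold higher at d9 than at d5, while Ctsz RNA was 2.53-fold and Cd63 RNA 2.23-fold lower. By edgeR's quasi-likelihood test, adjusted over 13182 genes after Benjamini and Hochberg with a threshold of 0.05, 14 members were higher and 3 lower at d9, which is 33.3% and 7.14% of the 42 tested. Of all genes tested 37.1% passed, 15.9% higher and 21.2% lower. The members' overall share, 40.5%, was thus near the background, and the share called higher was above it. The median log2 fold change of the members was 0.22, against -0.01 over all genes.

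With acetate, 11 members were higher and 6 lower at d9 than at d5, 26.2% and 14.3% of the 42. Over all genes 41.6% passed, 18.5% higher and 23.1% lower, and the members' median was 0.20, against -0.01 over all genes. The 2 lists of 17 shared 10 members, 58.8% of each, all in the same direction. The same overlap was not counted over all genes, so it does not set the members apart from them. Ctsd, Sqstm1, Gabarap, Npc2, Ctsa, Gaa, Atp6v0d1 and Scarb2 were higher and Ctsz and Cd63 lower in both. For no member did the difference between the 2 day effects pass the threshold, so a call in one comparison and not in the other does not show that they differ. With scaling by library size only, the split was 9 higher and 4 lower without acetate and 9 higher and 8 lower with acetate. The shares of all genes called higher and lower with that scaling are not given here, so this split has no background beside it. That scaling moved the median of all genes by -0.11 in both, and no called member changed its sign.

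**Figure D1:**
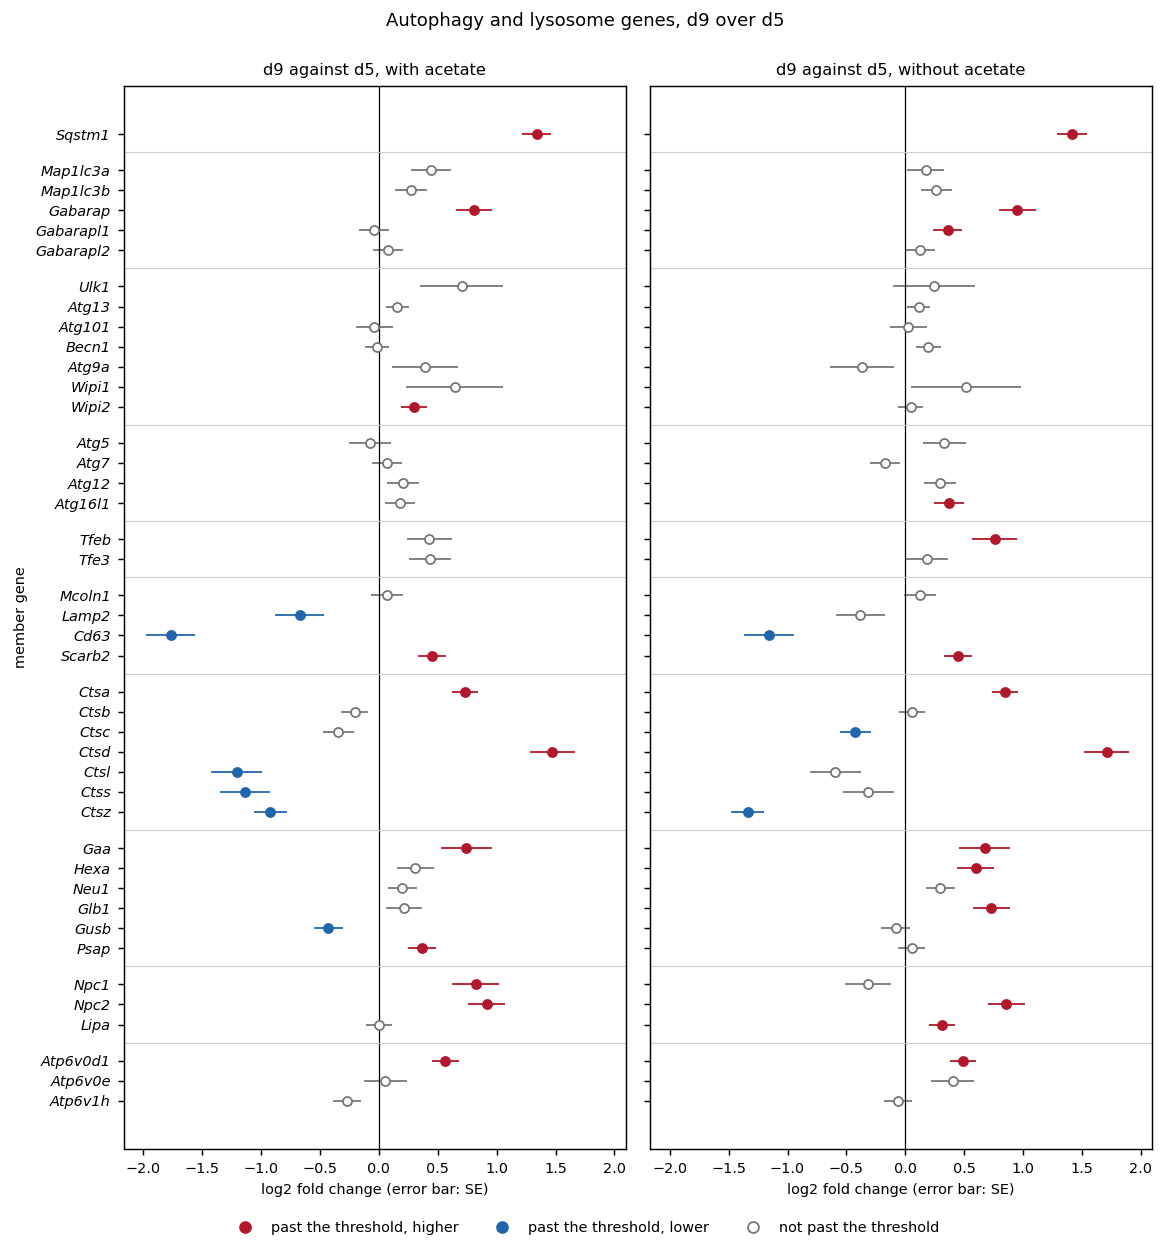
Log2 fold change of d9 over d5 (horizontal axis, bars are SE) for the 42 tested members, grouped by role, with acetate on the left and without acetate on the right. Filled red points are members past the threshold and higher, filled blue points past and lower, and open grey points did not pass; Sqstm1 and Ctsd lie farthest to the right and Cd63 and Ctsz are blue on both sides.

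Sqstm1 (chr11:50199366-50210827, GRCm38, minus strand) encodes p62, the receptor that links ubiquitin-tagged cargo to LC3 and is itself consumed by autophagy. It measured 3639.8, 3569 and 3610.1 CPM in d9 libraries without acetate, against 1396 and 1308 CPM in d5 libraries without acetate. With acetate the values were 3221, 2984 and 2700.1 CPM at d9, against 1200.0 and 1145 CPM at d5. Every d9 library was above every d5 library. The log2 fold change was 1.41 ± 0.12 (SE, adjusted p = 2.20e-05) without acetate and 1.34 ± 0.12 (adjusted p = 3.24e-05) with acetate. Its exons overlap Mrnip on the other strand. The sources used here do not give whether reads were counted by strand. For the 14 members whose exons overlap those of another gene, reads of the neighbour may therefore be included. Besides Sqstm1 these are Map1lc3b, Gabarapl1, Becn1, Atg9a, Ctsa, Ctsb, Ctsd, Ctsl, Ctsz, Hexa, Glb1, Npc1 and Atp6v1h. The exons of Npc1 overlap Gm15956 and Rmc1, and those of Ctsz overlap Nelfcd, on the other strand. Those of Atg9a overlap Gm29253 on the same strand.

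The LC3 and GABARAP proteins are small ubiquitin-like proteins that are joined to lipid on the growing autophagosome, where they recruit cargo receptors. Of the 5 genes, Gabarap and Gabarapl1 passed without acetate and Gabarap with acetate. Gabarap (chr11:69991143-69994951) measured 337, 263 and 253 CPM in d9 libraries without acetate, against 145 and 149 CPM in d5 libraries without acetate, and 222, 247 and 192 CPM at d9 with acetate, against 117 and 135 CPM at d5 with acetate. Its groups did not overlap, and its log2 fold change was 0.95 ± 0.16 (adjusted p = 0.000962) without and 0.81 ± 0.15 (adjusted p = 0.00223) with acetate. Gabarapl1, whose exons overlap 1700101I11Rik on the other strand, measured 163, 143 and 145 CPM at d9 without acetate, against 120.5 and 114 CPM at d5 without acetate. Its log2 fold change of 0.36 ± 0.13 had an adjusted p of 0.0444, which passed in 8 of 19 alternative settings (up to 0.209) and, of the fits without 1 library, only in those without d9 with acetate replicate 1 or 2. The values for Map1lc3b were 92.4, 76.5 and 74.8 CPM at d9, against 71.6 and 63.8 CPM at d5 without acetate, and those for Gabarapl2 were 59.5, 54.8 and 54.9 CPM at d9, against 53.4 and 49.7 CPM at d5. In neither gene did a day comparison pass (log2 fold changes of 0.08 to 0.27). Map1lc3a, the low gene of the family, had log2 fold changes of 0.18 without and 0.44 ± 0.17 (adjusted p = 0.0537) with acetate.

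Few of the genes that start and extend the autophagosome passed between days. Over all 17 autophagy machinery members, 23.5% passed without and 17.6% with acetate, against 37.1% and 41.6% of all genes. Of 7 initiation and nucleation genes none passed without acetate by edgeR, and none had an unadjusted p under 0.05, against 47% of all genes. With acetate Wipi2, which binds the lipid PI3P and brings in the conjugation complex, passed at 0.30 ± 0.11 (adjusted p = 0.0478). That call passed in 5 of 19 alternatives (adjusted p up to 0.257) and not without either d5 library with acetate. Of 4 conjugation genes Atg16l1, which places the conjugating complex on the membrane, passed without acetate at 0.37 ± 0.13 (adjusted p = 0.0405). It passed in 9 of 19 alternatives (up to 0.207) and not without any one of the d9 or d5 libraries without acetate. No conjugation gene passed with acetate, and none had an unadjusted p under 0.05 there, against 50.7% of all genes. Ulk1, the kinase of the initiation complex, varied widely between d9 libraries, at 44.0, 25.0 and 49.2 CPM with acetate and 29.5, 65.8 and 61.8 CPM without, against 26.4 and 22.1 CPM at d5 with acetate and 38.9 and 49.5 CPM at d5 without. Of the other initiation genes, Becn1 had log2 fold changes of 0.20 without and -0.02 with acetate, Atg101 of 0.03 and -0.04, Atg13 of 0.11 and 0.16, Atg9a of -0.37 and 0.39, and Wipi1, at most 5.20 CPM, of 0.51 and 0.64. Of the other conjugation genes, Atg5 had 0.33 and -0.08, Atg7 -0.18 and 0.07, and Atg12 0.29 and 0.21. For Ulk1 the lowest value in each d9 group belonged to the library with the high ribosomal protein share. Without those 2 libraries Ulk1 passed in both comparisons, at 0.94 (adjusted p = 0.000229) with acetate and 0.51 (adjusted p = 0.0103) without. In the same fit Atg9a passed with acetate at 0.61 (adjusted p = 0.00875), and Wipi2 no longer did, at 0.23 (adjusted p = 0.0663).

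Among the TFEB-family factors, Tfeb RNA was higher at d9 without acetate. Tfeb (chr17:47737030-47792419) measured 27.4, 38.8 and 40.4 CPM at d9 without acetate, against 21.7 and 20.3 CPM at d5, a log2 fold change of 0.76 ± 0.19 (adjusted p = 0.0112). The call did not pass without either of the d5 libraries (adjusted p up to 0.0882). With acetate its values were 31.3, 29.4 and 34.0 CPM at d9, against 27.3 and 19.6 CPM at d5, and the log2 fold change of 0.43 ± 0.19 did not pass (adjusted p = 0.0949). Tfe3, which shares the DNA sequence bound by TFEB, measured 85.0, 65.6 and 88.7 CPM at d9 with acetate, against 64.0 and 54.1 CPM at d5 with acetate, and 70.9, 99.0 and 102 CPM at d9 without acetate, against 78.3 and 81.3 CPM at d5. Neither comparison passed (0.43 ± 0.18, adjusted p = 0.0779, and 0.18 ± 0.18, adjusted p = 0.451). In both genes each d9 library that stands apart was the lowest of its group. Without the 2 libraries Tfe3 passed in both comparisons, at 0.55 (adjusted p = 0.00082) with acetate and 0.31 (adjusted p = 0.0233) without, and Tfeb with acetate at 0.48 (adjusted p = 0.0163). Mitf, the third factor, held 1 to 8 counts in each library and was not tested. It measured 0.0421, 0.0458 and 0.170 CPM at d9 with acetate, 0.179, 0.127 and 0.0435 CPM at d9 without, 0.448 and 0.263 CPM at d5 with acetate and 0.276 and 0.292 CPM at d5 without.

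The hydrolases and lipid-handling genes held most of the calls, 9 of 16 without acetate (7 higher, 2 lower) and 10 of 16 with acetate (6 higher, 4 lower). These are 56.2% and 62.5% of that class, against 37.1% and 41.6% of all genes. Higher were 43.8% and 37.5%, against 15.9% and 18.5% of all genes. Lower were 12.5% and 25%, against 21.2% and 23.1% of all genes. Ctsd (chr7:142375911-142388038), the main aspartic protease of lysosomes, measured 886, 755 and 765 CPM at d9 without acetate, against 302 and 188 CPM at d5 without acetate. With acetate it measured 681, 735 and 615 CPM at d9, against 255 and 233 CPM at d5. The groups did not overlap, and the log2 fold change was 1.71 ± 0.19 (adjusted p = 9.68e-05) without acetate and 1.47 ± 0.19 (adjusted p = 0.000222) with acetate. Ctsa (chr2:164832873-164841032), the protective protein that stabilises beta-galactosidase and neuraminidase, measured 114, 106 and 109 CPM at d9 without acetate, against 62.5 and 59.1 CPM at d5. With acetate Ctsa measured 91.8, 95.2 and 85.7 CPM at d9, against 51.5 and 57.9 CPM at d5. Its log2 fold changes were 0.85 ± 0.11 (adjusted p = 0.000226) without and 0.73 ± 0.11 (adjusted p = 0.000491) with acetate. The exons of Ctsd overlap Gm49369 on the same strand, and those of Ctsa overlap Neurl2 and Pltp on the other.

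Ctsz, Ctsl and Ctss, all cysteine cathepsins, and Ctsc, the dipeptidyl peptidase that activates granzymes, were lower at d9 where they passed. Ctsz (chr2:174427493-174439039) measured 57.8, 52.8 and 52.1 CPM at d9 without acetate, against 141 and 133 CPM at d5 without acetate, and 48.5, 60.3 and 49.4 CPM at d9 with acetate, against 87.9 and 112 CPM at d5 with acetate. Its log2 fold change was -1.34 ± 0.14 (adjusted p = 5.57e-05) without and -0.92 ± 0.14 (adjusted p = 0.000509) with acetate. Both groups of d9 libraries lay below both groups of d5 libraries. Ctsl, low throughout and overlapped by Gm49230 on its own strand, measured 5.18, 4.62 and 3.28 CPM at d9 with acetate, against 9.13 and 11.0 CPM at d5 with acetate (log2 fold change -1.21 ± 0.21, adjusted p = 0.00134), and 4.79, 4.61 and 4.96 CPM at d9 without acetate, against 6.17 and 8.29 CPM at d5, where it did not pass (-0.59 ± 0.22, adjusted p = 0.0521). Ctss measured 18.5, 25.0 and 16.9 CPM at d9 with acetate, against 36.6 and 51.9 CPM at d5 with acetate (-1.14 ± 0.21, adjusted p = 0.00193). Without acetate Ctss measured 28.2, 24.7 and 21.9 CPM at d9, against 26.5 and 35.5 CPM at d5, and did not pass. Ctsc measured 60.3, 63.5 and 71.8 CPM at d9 without acetate, against 92.3 and 82.4 CPM at d5, a log2 fold change of -0.42 ± 0.13 (adjusted p = 0.0278) that did not pass without replicate 1 or 2 of either of these groups (up to 0.191 over the alternatives). With acetate Ctsc measured 80.4, 62.9 and 71.2 CPM at d9, against 93.5 and 88.3 CPM at d5, and did not pass (-0.35 ± 0.13, adjusted p = 0.0550). Ctsb, another cysteine cathepsin, passed in neither comparison (0.06 without and -0.21 with acetate), but passed with acetate, at -0.29 (adjusted p = 0.0235), without the 2 libraries that stand apart. Ctss is also a gene of antigen-presenting cells. The 8 dendritic cell genes summed to 40.6 to 43.3 CPM at d9 with acetate and 55.7 to 59.0 CPM at d5 with acetate, and to 49.4 to 64.2 CPM at d9 and 43.8 to 57.3 CPM at d5 without acetate, with Clec9a and Siglech at 0 in all libraries. Most of that sum is Cd74 (14.3 to 36.9 CPM over the d9 and 34.8 to 51.96 CPM over the d5 libraries), the MHC class II invariant chain, and H2-Ab1, a class II chain that went the other way (16.0 to 29.2 CPM at d9 and 2.10 to 12.6 CPM at d5). Of the 4 genes of that list tested with acetate, H2-Ab1 was higher and Cd74 lower at d9. The 10 monocyte and macrophage genes summed to 6.86 to 7.75 CPM at d9 with acetate and 5.15 to 7.28 CPM at d5 with acetate, and the 6 B cell genes to at most 1.33 CPM at d9 with acetate and 3.25 to 5.15 CPM at d5 with acetate. The part of such cells in the Ctss values was not tested.

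The glycosidases that passed were mostly higher at d9. Gaa (chr11:119267887-119285454), the enzyme that breaks down lysosomal glycogen, measured 34.6, 54.3 and 51.1 CPM at d9 without acetate, against 26.0 and 32.5 CPM at d5, and 47.5, 34.1 and 43.4 CPM at d9 with acetate, against 26.9 and 22.9 CPM at d5. Its log2 fold changes were 0.67 ± 0.21 (adjusted p = 0.0305) and 0.74 ± 0.22 (adjusted p = 0.0185), the first without acetate. Over the alternatives the adjusted p reached 0.213 without acetate, where the call needed both d5 libraries and d9 replicates 2 and 3, and 0.128 with acetate, where it needed both d5 libraries and d9 replicate 1. Glb1, beta-galactosidase, measured 44.7, 37.1 and 34.2 CPM at d9 without acetate, against 22.8 and 23.8 CPM at d5, and Hexa, a beta-hexosaminidase subunit, measured 41.8, 34.2 and 34.3 CPM at d9, against 24.3 and 24.3 CPM at d5. Glb1 was higher by 0.73 ± 0.16 (adjusted p = 0.00440), and Hexa by 0.60 ± 0.16 (adjusted p = 0.0134, up to 0.0815 without a d5 library), without acetate. The exons of Glb1 overlap Tmppe on the same strand. With acetate neither passed (adjusted p = 0.287 for Glb1 and 0.135 for Hexa). Neu1, neuraminidase, did not pass (0.30 ± 0.12, adjusted p = 0.0841, without and 0.20 ± 0.12 with acetate). Gusb, beta-glucuronidase, was lower with acetate, at 47.5, 58.8 and 51.7 CPM at d9, against 68.4 and 73.3 CPM at d5 (-0.43 ± 0.12, adjusted p = 0.0177), a call that needed both d5 libraries (up to 0.128 over the alternatives). Without acetate Gusb measured 53.2, 59.3 and 60.9 CPM at d9, against 58.8 and 63.6 CPM at d5, and did not pass (-0.08 ± 0.12, adjusted p = 0.638). Psap was higher with acetate at d9 by 0.37 ± 0.12 (adjusted p = 0.0269) and did not pass without either d5 library or d9 replicate 1 (up to 0.185 over the alternatives), or without acetate (0.05 ± 0.11).

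Npc2 and Npc1 pass cholesterol out of the lysosome, the soluble Npc2 handing it to the membrane protein Npc1. Npc2 (chr12:84754562-84773152) measured 478, 420.4 and 380.0 CPM at d9 without acetate, against 226 and 244 CPM at d5 without acetate, and 363, 391 and 318 CPM at d9 with acetate, against 163 and 216 CPM at d5 with acetate. Its groups did not overlap, and the log2 fold change was 0.86 ± 0.16 (adjusted p = 0.00176) without and 0.92 ± 0.16 (adjusted p = 0.00111) with acetate. Npc1 was higher at d9 with acetate (0.82 ± 0.20, adjusted p = 0.00819, and 0.0825 without d5 replicate 2), and did not pass without acetate (-0.32 ± 0.19, adjusted p = 0.225); the d5 libraries with acetate also enter the acetate comparison at d5, where its values are given. Lipa, the acid lipase that frees cholesterol, passed without acetate at 0.31 ± 0.11 (adjusted p = 0.0477), in 6 of 19 alternatives (up to 0.205) and not without any one of the d9 or d5 libraries without acetate.

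**Figure D2:**
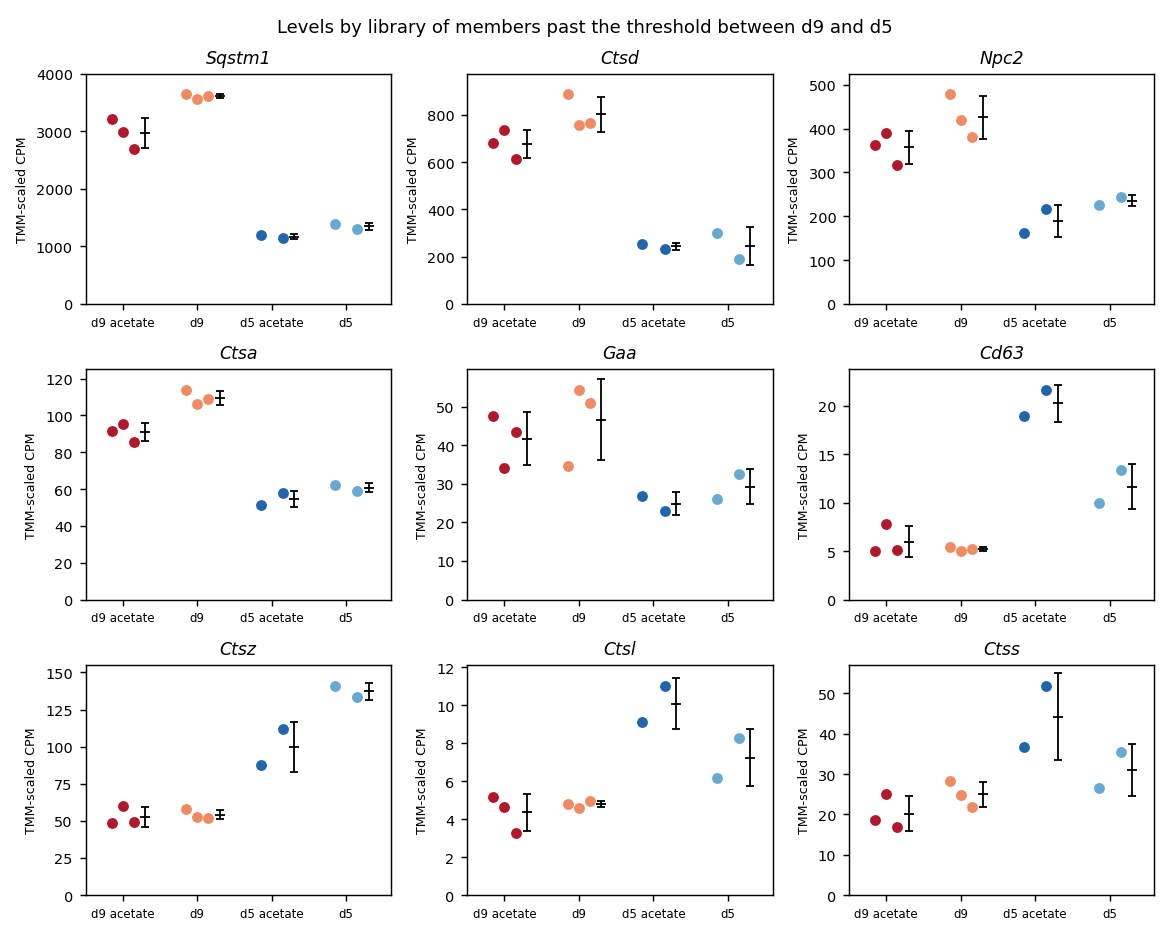
Level in TMM-scaled CPM (vertical axis) in each library of 9 members past the threshold in 1 or both day comparisons, with groups left to right d9 with acetate, d9, d5 with acetate and d5. Dots are libraries and the black mark is the mean ± SD of 2 or 3 libraries; Sqstm1, Ctsd, Npc2 and Ctsa stand higher in the d9 libraries, Cd63 and Ctsz lower.

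Of the 7 membrane and proton pump genes, 3 passed without and 4 with acetate. These shares of 42.9% and 57.1%, which rest on few genes, stand beside 37.1% and 41.6% of all genes. Cd63 (chr10:128900989-128912822), a tetraspanin of late endosomes and of cytotoxic granules, measured 4.97, 7.78 and 5.11 CPM at d9 with acetate, against 18.9 and 21.6 CPM at d5 with acetate, and 5.42, 4.99 and 5.22 CPM at d9 without acetate, against 9.98 and 13.3 CPM at d5 without acetate. Its log2 fold change was -1.77 ± 0.21 (adjusted p = 0.000130) with and -1.16 ± 0.21 (adjusted p = 0.00190) without acetate. Lamp2, a major glycoprotein of the lysosomal membrane, measured 39.5, 31.9 and 28.5 CPM at d9 with acetate, against 51.9 and 54.2 CPM at d5 with acetate (-0.67 ± 0.21, adjusted p = 0.0238, up to 0.11 without either d5 library or d9 replicate 2 or 3). Without acetate Lamp2 measured 40.2, 28.6 and 23.7 CPM at d9, against 38.0 and 42.3 CPM at d5. That comparison did not pass (-0.38, adjusted p = 0.175), and without the 2 libraries that stand apart it did, at -0.64 (adjusted p = 0.00789). Scarb2, which carries glucocerebrosidase to the lysosome, was higher by 0.45 ± 0.12 in both comparisons (adjusted p = 0.0130 without and 0.0116 with acetate). The calls did not pass without d5 without acetate replicate 2 or with scaling by library size only (up to 0.119), or without either d5 library with acetate (up to 0.0747). Mcoln1, the lysosomal calcium channel, passed in neither (0.12 ± 0.14 and 0.07 ± 0.14). Atp6v0d1, a subunit of the membrane part of the proton pump, was higher by 0.49 ± 0.11 (adjusted p = 0.00657, and 0.0643 without d5 replicate 1) without and 0.57 ± 0.11 (adjusted p = 0.00280) with acetate, while Atp6v0e (0.40 ± 0.18 and 0.05 ± 0.18) and Atp6v1h (-0.06 ± 0.12 and -0.27 ± 0.12) passed in neither. Without the 2 libraries that stand apart, Atp6v1h passed with acetate, at -0.35 (adjusted p = 0.0121).

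The promoters of 36 of the 43 members, 300 bases from 250 before to 50 after each start, were read from RefSeq (GRCm38.p6) because TFEB-family factors bind CACGTG there. The letters CACGTG, which read the same on both strands, were found in the promoters of 10 of the 36 genes (27.8%), against 11.9% of 9483 genes that passed the low-count filter and had a promoter in the table. The longer TCACGTGA, which contains CACGTG, was found in 5 of 36 (13.9%), against 2.31%, and TCACGTGA with a G before it and a C after it in none, against 0.844%. The 5 promoters with TCACGTGA are shown. Ctsd, Ctsa and Atp6v0d1 were higher at d9 in both comparisons, and Mcoln1 and Atp6v0e did not pass in either. Of the 42 members tested, 8 were higher in both. Whether the motif goes with the rise was not tested, and 5 genes are too few to show it. The sequences run 5′ to 3′ on the gene's strand, with CACGTG in capitals.
Ctsd: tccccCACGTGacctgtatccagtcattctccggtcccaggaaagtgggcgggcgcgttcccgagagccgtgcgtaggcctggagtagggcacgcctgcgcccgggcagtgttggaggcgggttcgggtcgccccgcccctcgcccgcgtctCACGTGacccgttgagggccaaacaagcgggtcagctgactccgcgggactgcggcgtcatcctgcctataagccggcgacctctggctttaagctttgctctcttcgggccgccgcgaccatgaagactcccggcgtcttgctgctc
Ctsa: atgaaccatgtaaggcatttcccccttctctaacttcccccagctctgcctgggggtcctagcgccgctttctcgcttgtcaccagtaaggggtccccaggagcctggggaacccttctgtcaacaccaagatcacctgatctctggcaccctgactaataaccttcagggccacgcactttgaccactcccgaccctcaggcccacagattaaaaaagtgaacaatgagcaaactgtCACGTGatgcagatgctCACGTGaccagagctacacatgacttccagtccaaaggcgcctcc
Atp6v0d1: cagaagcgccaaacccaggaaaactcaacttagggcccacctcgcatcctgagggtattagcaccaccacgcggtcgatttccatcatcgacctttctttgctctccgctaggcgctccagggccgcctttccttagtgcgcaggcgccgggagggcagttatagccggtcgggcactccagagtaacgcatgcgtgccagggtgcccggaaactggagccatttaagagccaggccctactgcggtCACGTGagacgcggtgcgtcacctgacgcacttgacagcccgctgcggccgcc
Mcoln1: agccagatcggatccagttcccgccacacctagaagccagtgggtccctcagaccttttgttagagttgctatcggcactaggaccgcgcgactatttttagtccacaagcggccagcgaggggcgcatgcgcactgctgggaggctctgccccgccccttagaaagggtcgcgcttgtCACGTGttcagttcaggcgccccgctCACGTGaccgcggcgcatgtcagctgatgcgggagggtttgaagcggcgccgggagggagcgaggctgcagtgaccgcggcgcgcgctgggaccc
Atp6v0e: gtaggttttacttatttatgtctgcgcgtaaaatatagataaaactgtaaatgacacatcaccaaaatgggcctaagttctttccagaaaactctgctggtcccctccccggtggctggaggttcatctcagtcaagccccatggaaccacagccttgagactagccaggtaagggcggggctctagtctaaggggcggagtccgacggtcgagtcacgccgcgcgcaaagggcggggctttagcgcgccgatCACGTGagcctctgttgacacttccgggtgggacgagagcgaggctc
The windows are chr7:142387778-142388077 (minus) for Ctsd, chr2:164833523-164833822 (plus) for the second Ctsa start, chr8:105566015-105566314 (minus) for Atp6v0d1, chr8:3500269-3500568 (plus) for Mcoln1 and chr17:26676146-26676445 (plus) for Atp6v0e. Ctsd and Mcoln1 hold CACGTG at 2 places and Ctsa holds TCACGTGA at 2, while the first Ctsa start has no CACGTG. The other genes with CACGTG ran in mixed directions. Gaa was higher at d9 in both comparisons and Glb1 without acetate, Ctsl was lower with acetate, and Atg5 and Atg7 passed in neither. A match describes the letters and shows no binding, and the members were listed by lysosomal role, which includes genes long used to define this motif. Sqstm1, Gabarap, Npc2 and Scarb2, also higher at d9, have no CACGTG in the window read, which says nothing of other windows.

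Other genes of the same pathways were counted from fixed lists. Their shares past the threshold stand beside 37.1% of all genes without and 41.6% with acetate. Of 23 other autophagy machinery genes 1 was higher and 1 lower at d9 without acetate, and 4 and 1 with acetate, among them Rb1cc1, the scaffold of the ULK1 complex, at -1.37 ± 0.25 (adjusted p = 0.00164) and -1.13 ± 0.25 (adjusted p = 0.00453). These are 8.7% and 21.7% of that list, below the share of all genes in both. Of those called, the highest were Atg4b, a protease that primes LC3, at 0.38 without and Pik3r4, a subunit of the PI3P-making kinase complex, at 0.76 with acetate. Of 9 other autophagy receptors 1 was higher and 2 lower without acetate (Calcoco1 at 0.98, Tax1bp1 at -1.01), and 3 and 2 with acetate (Optn at 0.92, the mitophagy receptor Fundc1 at -1.48). Of 30 other lysosomal hydrolases 8 were higher and 2 lower without acetate, and 8 and 3 with acetate. The lowest of those called were Gm2a, the GM2 ganglioside activator, at -1.20 without and the cysteine cathepsin Ctso at -0.96 with acetate. Of 14 other membrane proteins 6 were higher and none lower without acetate, and 6 higher and 1 lower with acetate, led by the peptide transporter Abcb9 at 1.70 without and by Laptm5 at 1.55 with acetate. The least of those called were Cln3 at 0.41 without and Mfsd8 at -0.50 with acetate. Of 14 other proton pump subunits 2 were higher and 2 lower in each comparison, with the alternative membrane subunits Atp6v0a1 at 1.64 and 1.84 and Atp6v0d2 at -2.44 and -1.71, without and with acetate. Atp6v0d2 was at most 3.09 CPM in any library. The shares of the other lists, without and with acetate, were 33.3% and 55.6% for the receptors, 33.3% and 36.7% for the hydrolases, 42.9% and 50% for the membrane proteins and 28.6% in each for the proton pump. Of 21 genes of mTORC1 and folliculin control, 6 were higher and 2 lower without, and 5 and 3 with acetate, where the folliculin partners ran in opposite directions, Fnip2 at 1.34 and 1.18 and Fnip1 at -1.12 and -1.08. Those calls are 38.1% of that list in each comparison.

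Acetate given during the last day at d5 was accompanied by lower RNA of 3 members, Npc1, Map1lc3a and Psap, and no member passed as higher. These are 7.14% of the 42, against 1.52% of all genes tested (0.66% higher, 0.865% lower). The members' median log2 fold change was -0.08, against 0.01 over all genes. Npc1 (chr18:12189692-12236400) measured 42.0 and 32.9 CPM in d5 libraries with acetate, against 82.0 and 91.9 CPM without (37.5 ± 6.44 against 87.0 ± 6.97, SD, n = 2 each). Its log2 fold change was -1.22 ± 0.22 (adjusted p = 0.0303). Map1lc3a (chr2:155276297-155278073), an LC3 gene, measured 4.93 and 5.05 CPM with acetate, against 8.66 and 11.6 CPM without (-1.02 ± 0.18, adjusted p = 0.0295). Psap (chr10:60277627-60302597), the precursor of the saposins that help hydrolases reach lipids, measured 150.4 and 136 CPM with acetate, against 247 and 217 CPM without (-0.70 ± 0.13, adjusted p = 0.0303). In each gene the libraries with acetate lay below those without. Npc1 and Psap, but not Map1lc3a, were also lowest of their group in both d9 libraries with the high ribosomal protein share. At d5 Npc1 and Psap were lowest in acetate replicate 2, where that share was 14.18%, and Map1lc3a in acetate replicate 1. The part of that share in these calls was not tested. At d5 the 10 monocyte and macrophage genes summed to 5.15 to 7.28 CPM with acetate and 9.76 to 13.0 CPM without. The 6 B cell genes summed to 3.25 to 5.15 CPM with acetate and 1.16 to 1.69 CPM without. The 8 dendritic cell genes summed to 55.7 to 59.0 CPM with acetate and 43.8 to 57.3 CPM without. The part of such cells in the calls of Npc1, Map1lc3a and Psap was not tested. Each call rests on all 4 d5 libraries. None of the 3 passed without any one of them, with adjusted p up to 0.234, and the log2 fold changes were negative throughout, from -1.40 to -0.60. Through the shared fit, the 3 calls were also lost without d9 without acetate replicate 3 (adjusted p = 0.0606), and those of Map1lc3a (0.0568) and Psap (0.0536) without its replicate 2.

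Without the 2 d9 libraries that stand apart, which are not compared at d5 but share its fit (scaling, low-count filter and estimate of spread), 14 members passed at d5, 3 higher and 11 lower. Of all genes 16.7% passed in that fit, 7.05% higher and 9.66% lower, against 1.52% in the fit on all libraries. Those added included Ulk1 at -0.87 (adjusted p = 0.00275), Atg9a, the membrane scramblase of early autophagosomes, at -0.93 (adjusted p = 0.00425) and Cd63 at 0.80 (adjusted p = 0.0114). The others added were Atg5 and Atp6v1h, higher by 0.43 (adjusted p = 0.0141) and 0.46 (adjusted p = 0.0115), and Map1lc3b, Atg13, Wipi2, Atg7, Tfe3 and Ctsz, with log2 fold changes of -0.57 to -0.34 (adjusted p up to 0.0366). In the fit on all libraries Ulk1, Atg9a and Cd63 did not pass (adjusted p = 0.243 for Ulk1, 0.145 for Atg9a and 0.106 for Cd63). Cd63 measured 18.9 and 21.6 CPM in d5 libraries with acetate, against 9.98 and 13.3 CPM without. Of the 6 other pathway lists no gene passed by edgeR in either acetate comparison, with 1 to 4 genes of a list at an unadjusted p under 0.05 at d9 and 2 to 7 at d5. These are 7.14% to 22.2% of a list at d9 and 13% to 33.3% at d5, against 15.4% and 19.8% of all genes.

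At d9 no member passed the threshold for acetate by edgeR, with 11 of 42 (26.2%) at an unadjusted p under 0.05, against 15.4% of all genes. Over all genes 0.0303% passed by edgeR. DESeq2's Wald test called 3 members, all lower, with Map1lc3a and Atg13 among them, and 2.54% of all genes, and limma-voom called no member. The members' log2 fold changes were negative in 33 of 42, while 51% of those of all genes were positive. The members' median was -0.18, against 0.01 over all genes. The smallest p belonged to Map1lc3a and Atg13. Map1lc3a measured 7.08, 6.41 and 6.86 CPM in d9 libraries with acetate, against 11.6, 11.2 and 11.5 CPM without, groups that did not overlap, at a log2 fold change of -0.75 ± 0.14 (adjusted p = 0.0833). Atg13, a subunit of the ULK1 complex, measured 70.6, 68.9 and 69.3 CPM with acetate, against 90.6, 83.2 and 88.9 CPM without (-0.33 ± 0.09, adjusted p = 0.151). At d5 Atg13 measured 62.1 and 62.8 CPM with acetate, against 82.1 and 79.8 CPM without. Psap measured 198, 176 and 180.1 CPM with acetate, against 228, 259.7 and 236 CPM without (-0.39 ± 0.10, adjusted p = 0.153). Sqstm1 measured 3221, 2984 and 2700.1 CPM with acetate, against 3639.8, 3569 and 3610.1 CPM without (-0.28 ± 0.11, adjusted p = 0.248).

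The LC3 and GABARAP family showed the same sign at d9 in each of its 5 genes, at -0.75, -0.36, -0.37, -0.11 and -0.21 for Map1lc3a, Map1lc3b, Gabarap, Gabarapl1 and Gabarapl2, and none passed. At d5 the values for the same genes were -1.02, -0.37, -0.22, 0.29 and -0.16, of which only that of Map1lc3a passed. Map1lc3b measured 65.0, 68.4 and 56.6 CPM at d9 with acetate, against 92.4, 76.5 and 74.8 CPM at d9 without, and 52.5 and 52.1 CPM at d5 with acetate, against 71.6 and 63.8 CPM at d5 without. Gabarapl1 measured 135 and 152 CPM at d5 with acetate, against 120.5 and 114 CPM at d5 without. At d9 its values of 124, 156 and 137 CPM with acetate overlapped those without, 163, 143 and 145 CPM. Gabarapl2 measured 46.7, 55.2 and 44.2 CPM at d9 with acetate, against 59.5, 54.8 and 54.9 CPM at d9 without, and 43.7 and 48.5 CPM at d5 with acetate, against 53.4 and 49.7 CPM at d5 without.

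**Figure D3:**
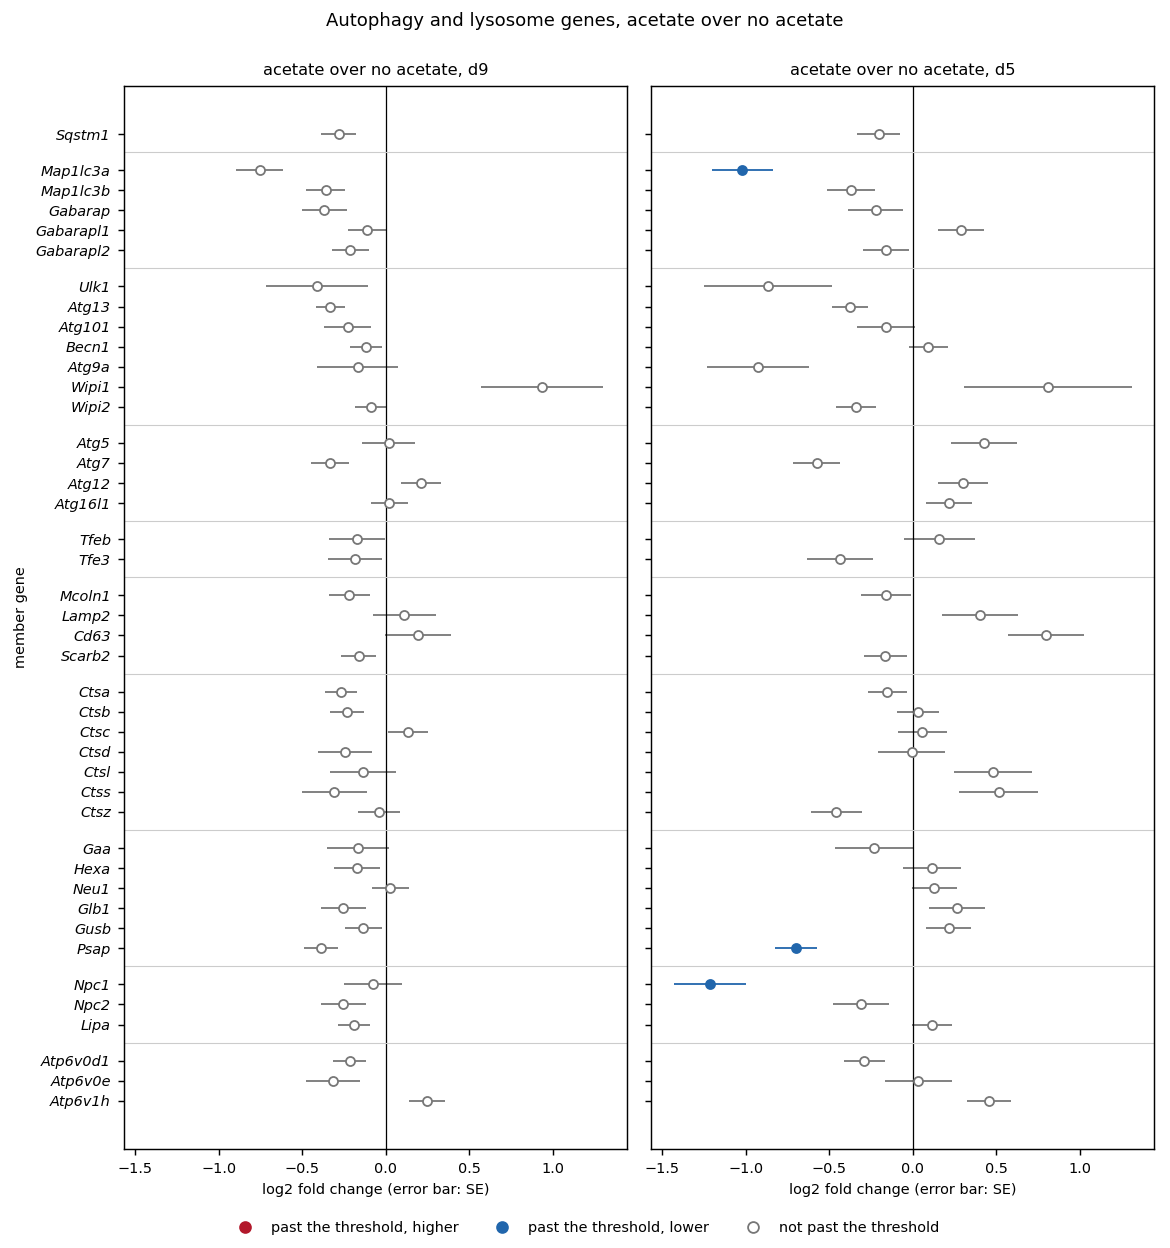
Log2 fold change of acetate over no acetate (horizontal axis, bars are SE) for the 42 tested members, with d9 on the left and d5 on the right. No point is filled at d9; at d5 Map1lc3a, Psap and Npc1 are filled blue, past the threshold and lower.

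The acetate effect was compared between days by its difference, d9 minus d5. No member passed by edgeR, as no gene did among all tested (0%). An unadjusted p under 0.05 was found for 4 members (9.52%), against 7.7% of all genes. DESeq2's Wald test called 1, Npc1, and 0.774% of all genes, and limma-voom called no member. The smallest p were those of Npc1 and Ctss. Npc1 measured 80.3, 52.3 and 66.1 CPM at d9 with acetate, against 57.8, 79.6 and 72.2 CPM at d9 without, groups that overlapped, so that the difference of effects was 1.14 ± 0.28 (adjusted p = 0.240). Without the 2 libraries that stand apart, which held the lowest Npc1 value of their groups, it passed at 1.18 ± 0.19 (adjusted p = 0.0174). For Ctss the difference was -0.82 ± 0.31 (adjusted p = 0.542), from -0.31 at d9 and 0.51 at d5.

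**Figure D4:**
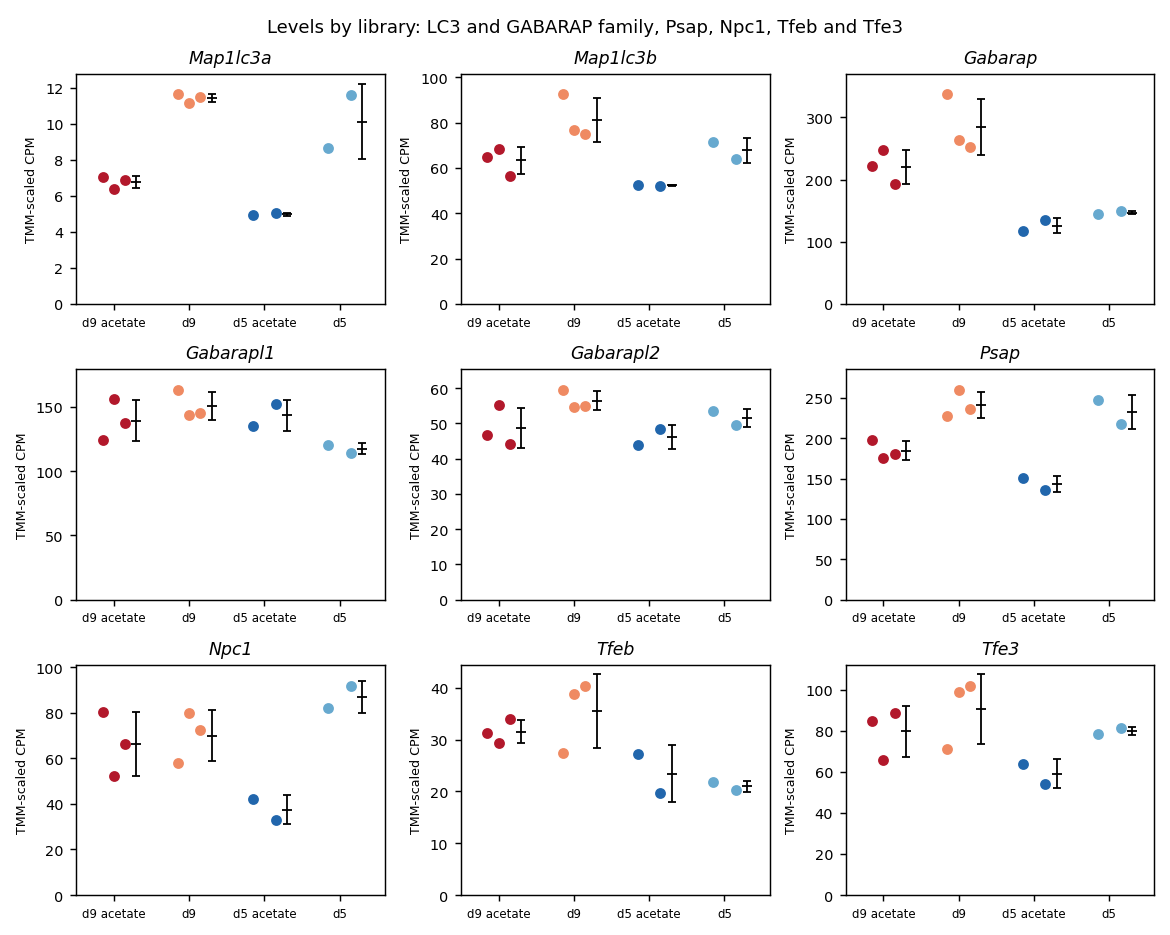
Level in TMM-scaled CPM (vertical axis) in each library of the 5 LC3 and GABARAP genes, Psap, Npc1, Tfeb and Tfe3, with groups left to right d9 with acetate, d9, d5 with acetate and d5. Dots are libraries and the black mark is the mean ± SD; Map1lc3a and Psap lie lower with acetate at each day, and Npc1 lies lower with acetate at d5.

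The 2 d9 libraries that stand apart were the highest of their group in 21 of the 42 members (50%) and the lowest in 9 (21.4%), against 25.5% and 27.6% of all genes tested. The 9 were Ulk1, Atg9a, Atg7, Tfeb, Tfe3, Ctsc, Gaa, Psap and Npc1. Ulk1 stood at 0.462 and Atg9a at 0.646 times the mean of the other d9 libraries without acetate, and at 0.537 and 0.564 times that of the others with acetate. Among the 21, Atg5, part of the conjugating complex, stood at 1.43 and Atp6v0e at 1.30 times that mean without acetate, and at 1.31 and 1.38 times with acetate. Without both libraries 20 members passed between days without acetate (16 higher, 4 lower) and 22 with acetate (14 higher, 8 lower). These are 47.6% and 52.4% of the 42, against 46% and 51.5% of all genes in that fit (20.4% higher and 25.6% lower without acetate, 25% and 26.4% with). The part of the ribosomal protein share in these values was not tested.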

How the data were processed

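Raw counts per gene, 1 file per library, were deposited by the authors, and the submitters' processing notes name deepTools, STAR, featureCounts, DESeq2 and GRCm38, without roles. Neither the annotation nor the use of strand in counting is given in the sources used here. Of 53465 gene IDs, 53360 matched GENCODE M21; the other 105 took up to 0.00689% of the counts in a library. The 10 libraries were grouped by label into 4 groups. In R 4.3.3, edgeR 4.0.16 fitted the group means (TMM, filterByExpr, robust quasi-likelihood, 6 residual degrees of freedom), and the 5 comparisons were Benjamini-Hochberg adjusted over 13182 genes at 0.05. The biological coefficient of variation was 0.161, and SE is the absolute log2 fold change over the square root of F. The procedure was also run on simulated data. These had the same spread for all genes and no libraries that stand apart, so that run does not show how the procedure handles such libraries. Values of every library are given for members with the 8 largest changes per direction between days, members past the threshold for acetate, those of smallest p where none passed, and the LC3 and TFEB families, and the others are given by role. Of each fixed list the extreme members past the threshold are named, except for an item not reported here. Promoters came from RefSeq GRCm38.p6. The members and lists were chosen with earlier results of these data known. Alternatives used other scaling, filters, DESeq2 1.42.0, limma-voom (limma 3.58.1), fewer libraries and a replicate block.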

Additional observations from a re-analysis of the deposited data

How the results depend on the processing

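Calls were followed over the 19 alternatives for the genes chosen by the rule above, which favours the largest changes. Of these 28 calls, 16 held in all 19 alternatives, and none changed sign. Among the 16 were those of Ctsd, Sqstm1, Gabarap, Npc2, Ctsa, Cd63 and Ctsz in both day comparisons. The calls of Atg16l1, Wipi2, Lipa, Hexa, Glb1, Scarb2 and Atp6v0d1 are not among the 28. As given above, those of Atg16l1, Wipi2, Lipa, Hexa and Scarb2, and that of Atp6v0d1 without acetate, were lost in some alternatives. For acetate at d5 (3 members) the count was 7 by DESeq2's Wald test, 11 on only the libraries compared, 14 without the 2 libraries that stand apart, 0 with a replicate block and 0 to 4 without 1 library in turn, at 0 also without d9 without acetate replicate 3. Of all genes at d5, 5.96% passed by DESeq2's Wald test, 13.9% on only the libraries compared and 16.7% without the 2 libraries. The share was 1.52% in the fit on all libraries. For acetate at d9 (0) the count was 1 with no filter and 3 by DESeq2's Wald test, against 0.849% and 2.54% of all genes. Without 1 library in turn, the count for d9 against d5 without acetate (17) was 9 to 18, with 9 without either d5 library, and with acetate (17) 10 to 21, with 11 and 10 without d5 replicate 1 and 2. Without the 2 libraries that stand apart these counts were 20 and 22. For the difference (0) the count was 1 with no filter, by DESeq2's Wald test, and without the 2 libraries. Of all genes 0.427%, 0.774% and 1.97% passed in these fits. Fits without a d5 library leave a group of 1, assumed to vary like the others. Shares of all genes are not given for the fits without 1 library or with a replicate block. Their member counts show only how the calls depend on the fit. Replicate numbers did not pair the libraries (correlations of deviations 0.0293 at d5 and -0.139, -0.392 and 0.329 at d9), and the replicate block gave 13 and 15 members between days, without and with acetate. Groups of 2 and 3 libraries limit all of these, and low counts also limit Mitf and Wipi1.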
